A study of Homo sapiens with 6 samples.

Results

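The 8 genes described here encode proteins of the subdistal appendages, the ring of projections on the older (mother) centriole of the centrosome. They were taken by name from a table of 58735 genes: ODF2, CEP128, CNTRL, NIN, NINL, CCDC120, CCDC68 and CEP170. RNA-seq counts came from 6 libraries of RPE-1, an immortalised human line derived from retinal pigment epithelium, in which CETN2 carries a GFP tag that marks centrioles and the kinase gene PLK4 answers to doxycycline through rtTA. The cells received either scramble siRNA (siControl, n = 3) or siRNA against the splicing factor SON (siSON, n = 3). Both groups had PLK4 induced with doxycycline at 1 µg/mL, so that both share this induction, and no library without induction was analysed here. Nothing in the labels says whether the 3 libraries of a group came from separate cultures, so that p-values measure the spread between these libraries, which may be technical.

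Subdistal appendages anchor microtubules at the mother centriole and help to position the centrosome and the primary cilium. They are built from the centriole wall outward. ODF2 (cenexin) forms the base, CEP128 and centriolin (CNTRL) follow, ninein (NIN) and its relative NINL link the structure to microtubules and gamma tubulin, and CCDC120 and CCDC68 help to place CEP170 at the outer tip. A mother centriole also carries distal appendages, a separate set of proteins that docks it to membrane when a cilium forms. SON binds pre-mRNA in nuclear speckles and aids the splicing of introns with weak splice sites. The comparison asked how transcript abundance differs when SON is depleted during centriole amplification.

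Of the 8 genes, 4 fell after SON knockdown. These were CCDC120, CEP128, CEP170 and NIN, with log2 fold changes from -0.97 to -0.28. The base component ODF2 and CNTRL did not pass the test, and NINL and CCDC68 had too few counts to enter it. No tested member was called higher. The 4 of 6 tested stand beside a wide background: 71.7% of the 16591 genes tested were called in either direction (edgeR adjusted p under 0.05), 36.5% as lower and 35.2% as higher. With library size alone as the scaling that split was 44.3% lower and 26.8% higher. The median log2 fold change of the 6 tested members was -0.42, beside -0.03 for all genes tested.

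RefSeq promoter windows were found for all 8 genes, and those of the 4 genes that fell are shown because these are the members that the test called. Each run is the 250 bases upstream of an annotated start (GRCh38.p14), written 5′ to 3′ on the gene's strand. Capitals mark matches to either of 2 patterns: TGCGCA, a palindrome found in the site of the factor NRF1, and ACTACA followed after 2 bases by TCCCAG, a pattern of the ZNF143 type searched on both strands. These patterns were chosen after the sequences were read.
CEP170 (chr1:243255282-243255531, minus strand): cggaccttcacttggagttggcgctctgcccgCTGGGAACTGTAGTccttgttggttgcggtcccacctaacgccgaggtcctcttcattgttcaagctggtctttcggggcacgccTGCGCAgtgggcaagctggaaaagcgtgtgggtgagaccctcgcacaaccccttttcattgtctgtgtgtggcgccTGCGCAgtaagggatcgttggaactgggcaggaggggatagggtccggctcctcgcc
CEP128 (chr14:80941739-80941988, minus strand): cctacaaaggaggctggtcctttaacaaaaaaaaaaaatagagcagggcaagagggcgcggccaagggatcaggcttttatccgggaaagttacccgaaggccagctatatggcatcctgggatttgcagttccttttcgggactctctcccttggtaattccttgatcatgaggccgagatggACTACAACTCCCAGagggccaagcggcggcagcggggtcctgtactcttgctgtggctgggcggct
CCDC120 (chrX:49053322-49053571, plus strand): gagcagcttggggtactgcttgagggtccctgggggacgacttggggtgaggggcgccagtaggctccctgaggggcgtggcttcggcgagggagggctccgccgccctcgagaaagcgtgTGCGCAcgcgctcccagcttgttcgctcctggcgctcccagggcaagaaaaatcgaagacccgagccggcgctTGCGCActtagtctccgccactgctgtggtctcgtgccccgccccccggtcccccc
NIN (chr14:50831163-50831412, minus strand): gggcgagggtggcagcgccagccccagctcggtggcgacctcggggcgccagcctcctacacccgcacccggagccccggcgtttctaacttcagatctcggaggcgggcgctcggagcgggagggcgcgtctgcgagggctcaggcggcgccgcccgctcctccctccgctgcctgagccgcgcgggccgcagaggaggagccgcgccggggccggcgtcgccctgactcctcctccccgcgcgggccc

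The CEP170 window held 2 matches to TGCGCA, beginning 133 and 57 bases before the start, and 1 match to the split pattern at 218 bases. The CCDC120 window also held 2 matches to TGCGCA, at 129 and 56 bases. The CEP128 window held 1 match to the split pattern, at 66 bases. The RefSeq starts of CEP128 and CEP170 lie inside the longer GENCODE spans of these genes. The whole CEP128 window and the CEP170 match at 57 bases thus fall within those spans. Neither pattern was in the NIN window, whose GC content was 78.8%, nor in any window of ODF2, CNTRL, NINL or CCDC68. Among 35116 windows of the same length over all RefSeq genes, 6.89% held TGCGCA at least once, 0.823% held it at least 2 times, and 0.954% held the split pattern. Of 4 other patterns searched on both strands, CCAAT was in 32.0% of all windows and in those of CNTRL, ODF2 and CCDC68, GGGCGG was in 42.6% of all windows and in those of 6 members, and TTTGAA (13.3% of all windows) and TATAAA (10.7%) were found among the members in CCDC68 alone. A match describes these letters and is not a bound site.

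The siRNA target was checked in each library. SON had 295, 313 and 284 CPM in siControl and 67.9, 69.9 and 65.0 CPM in siSON (CPM, counts scaled to library size with edgeR's TMM factors), so that 22.8% remained. PLK4, the induced gene, was at 163, 184 and 185 CPM in siControl and 113, 159 and 143 CPM in siSON. It was called lower in siSON (log2 fold change -0.36, adjusted p 0.0143), and the part of this difference in the results below was not tested. CETN2, the tagged gene, was at 623, 599 and 649 CPM in siControl and 851, 768 and 821 CPM in siSON. It was called higher (log2 fold change 0.38, adjusted p 5.89e-05), and its part was not tested either. Library totals were 54572365 to 69764836 counts, and pairs of replicates that included replicate 1 differed more (chi-square per degree of freedom 18.6 to 24.7) than the pairs of replicates 2 and 3 (6.77 and 7.21). Of the markers of differentiated pigment epithelium, MITF, OTX2 and BEST1 were higher in siSON (log2 fold changes 0.52, 0.82 and 0.62) and PMEL lower (-3.36), TYR was at 0 in all libraries, RPE65 had 0 to 18 counts and RLBP1 0 to 7. Of the markers of the line, KRT18 was higher (1.48) and CAV1 lower (-0.48), KRT8 was higher (0.34, turned to -0.07 under cyclic loess) and VIM was not called (-0.14, adjusted p 0.0521). VIM was called lower under the other scalings. These were RLE factors (-0.14, adjusted p 0.0468), library size alone (-0.34, adjusted p 0.000222) and cyclic loess (-0.66, adjusted p 3.42e-07). The part of these pigment epithelium and line markers in the results below was not tested. Of the markers of blood, endothelium, liver and neurons, CD3E was at 0 in all libraries, and the list summed to 7.20 to 8.23 CPM in siControl and 9.27 to 10.4 CPM in siSON, most of it SNAP25, which was higher in siSON, while PTPRC and PECAM1 were lower. PECAM1, at 13 to 51 counts in siSON, lost its call under cyclic loess (-0.77, adjusted p 0.0747). Of 7 cell cycle markers, 5 were called (71.4%, near the 71.7% of all genes tested). MKI67, CDK1, PCNA and MCM2 were lower, and CCNB1 was higher (log2 fold change 0.18, turned to -0.02 with library size alone and -0.04 under cyclic loess). TOP2A (-0.21, adjusted p 0.0577) and CCNA2 (-0.13, adjusted p 0.503) were not called. Both were called lower under cyclic loess, and TOP2A also with library size alone. The summed level of the 7 was 1800 to 2000 CPM in siControl and 1260 to 1700 CPM in siSON. In bulk RNA, fewer cells of one kind and less RNA per cell cannot be told apart, and the part of the cell cycle in the results below was not tested.

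The members spanned a wide range of abundance. Levels were compared per kilobase of exonic length, the merged length of all annotated exons. In siControl, CEP170 was the most abundant at 17.6 ± 0.297 CPM per kb (SD, n = 3), followed by ODF2 at 8.79 ± 0.204 and NIN at 6.22 ± 0.182. CNTRL stood at 3.22 ± 0.578 CPM per kb, CEP128 at 1.93 ± 0.195 and CCDC120 at 1.09 ± 0.0501. NINL and CCDC68 were far below, at 0.0378 ± 0.0155 and 0.00535 ± 0.00464 CPM per kb. No neighbours in this order overlapped in siControl, and the order was the same in siSON, where only NINL (0.0131 to 0.0172 CPM per kb) and CCDC68 (0.0112 to 0.0166) overlapped. With the length of the longest coding transcript in place of exonic length, CNTRL and CEP128 also overlapped in siControl, at 3.18 to 4.57 and 3.44 to 4.15 CPM per kb.

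**Figure D1:**
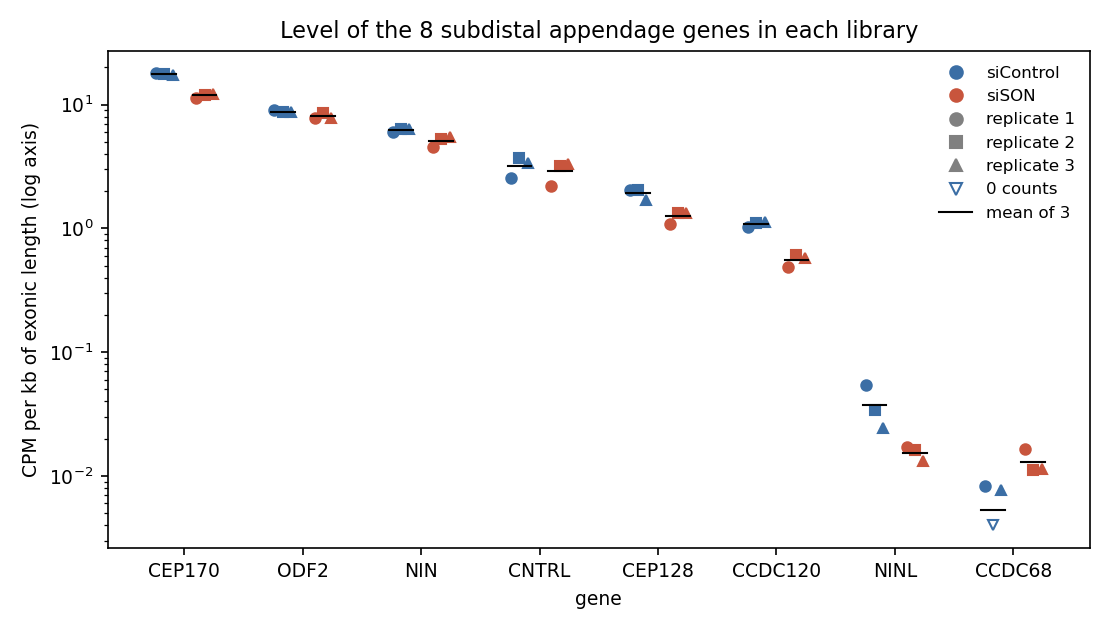
Levels of the 8 genes in every library, in CPM per kb of exonic length on a log axis, with siControl in blue and siSON in red, a marker shape for each replicate and a line at the mean of 3. CEP170 lies highest in both groups, NINL and CCDC68 lie far below the other 6, and the open triangle stands for the siControl library with 0 counts of CCDC68.

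The balance among the 8 transcripts shifted with the groups. Their summed level was 38.7, 39.4 and 38.5 CPM per kb in siControl and 27.6, 31.0 and 30.8 CPM per kb in siSON. CEP170 made up 46.3%, 44.6% and 44.9% of that sum in siControl and 41.5%, 38.8% and 39.7% in siSON. The share of ODF2 was 22.0% to 23.3% in siControl and 25.4% to 28.1% in siSON, and that of CCDC120 was 2.68% to 2.94% and 1.79% to 1.95%. The shares of the groups did not overlap for these 3 genes. They nearly touched for CEP128 (4.43% to 5.33% and 3.95% to 4.35%) and NIN (15.5% to 16.4% and 16.5% to 17.8%). The share of NIN was the higher in siSON although its level was lower there. Those of CNTRL overlapped. Those of NINL (0.0635% to 0.142% and 0.0425% to 0.0624%) and CCDC68 (0% to 0.0215% and 0.0362% to 0.0603%) did not overlap either, but they rest on very few counts. Since the share of 1 gene moves those of the others, these are descriptions only. A share among 8 genes has no counterpart over all genes tested, so the separations have no background beside them. Shares with the length of the longest coding transcript were not computed.

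ODF2 encodes the scaffold on which the appendage is assembled, and the same gene makes the outer dense fibre protein of sperm tails. It lies on chromosome 9, 128455186 to 128501292, plus strand (GENCODE release 29, GRCh38), with 17 annotated protein-coding transcripts that the gene counts do not separate. ODF2 had 57.7, 55.3 and 55.5 CPM in siControl and 49.5, 54.5 and 50.1 CPM in siSON. Every siSON library lay below every siControl library, the nearest pair being siControl replicate 2 and siSON replicate 2. ODF2 was not called (log2 fold change -0.13, SE 0.06, edgeR adjusted p 0.0785). It was called as lower when library size alone was used for scaling (log2 fold change -0.33, adjusted p 0.000852), under cyclic loess scaling (-0.28, adjusted p 0.00193) and when genes under a mean count of 50 were left out (-0.19, adjusted p 0.0165). The relative ODF2L was at 29.1, 30.0 and 29.3 CPM in siControl and 29.8, 29.8 and 25.6 CPM in siSON (log2 fold change -0.06, SE 0.08, adjusted p 0.535), and it too was called lower with library size alone (-0.25, adjusted p 0.0139).

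CEP128, which is brought to the centriole by ODF2 and is needed for CNTRL and NIN to assemble there, fell more clearly. The gene spans chromosome 14, 80476983 to 80959517, minus strand, the longest span of the 8 at 482.5 kb. Its levels were 19.4, 19.1 and 16 CPM in siControl and 10.2, 12.5 and 12.6 CPM in siSON. The groups did not overlap, and 64.8% of the control mean remained. CEP128 fell by 0.63 on the log2 scale (SE 0.11, adjusted p 0.000316).

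CEP128 was set against ODF2 within each library, a ratio that does not depend on how libraries are scaled. The log2 ratio of CEP128 counts over ODF2 counts was -1.58, -1.54 and -1.79 in siControl and -2.28, -2.13 and -1.99 in siSON. All 3 siSON ratios were lower, with a difference of -0.50 between the means. The 2-sided exact permutation p was 0.1, which is the lowest that 3 libraries against 3 allow, and it was 0.1 after adjustment over the 3 pairs compared.

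CNTRL encodes centriolin, which also acts at the midbody in the last step of cell division. It lies on chromosome 9, 121074863 to 121177610, plus strand, with 44 exons in its longest coding transcript. CNTRL had 24.3, 35.0 and 31.6 CPM in siControl and 20.7, 30.2 and 31.0 CPM in siSON. Replicate 1 was the lowest library of each group, and the groups overlapped. CNTRL was not called (log2 fold change -0.15, SE 0.17, adjusted p 0.451), and without siSON replicate 1 the value was 0.03 (adjusted p 0.861). Without replicate 1 of both groups it was -0.15 (adjusted p 0.0762), and with the replicate number as a block -0.16 (adjusted p 0.051). The siSON library was the lower in each same-numbered pair.

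The replicate 1 libraries stood low in the summed level of the cell cycle list too. In order of replicate, that sum was 1800, 1960 and 2000 CPM for siControl and 1260, 1600 and 1700 CPM for siSON. All genes of the list but MCM2 had replicate 1 as the lowest library of both groups. MCM2 was at 76.1, 74.0 and 75.1 CPM in siControl and 61.7, 60.6 and 63.4 CPM in siSON. Of 51 genes compared (the other tested members and the tested genes of the partner, distal appendage, paralog, recycling endosome and cell cycle lists), CCNA2, cyclin A2, had the pattern nearest to that of CNTRL over the 6 libraries, with a root mean square difference of 0.084 in centred log2 CPM. CCNA2 was at 101, 121 and 122 CPM in siControl and 75.0, 117 and 122 CPM in siSON. The part of the cell cycle in the low CNTRL libraries was not tested.

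NIN encodes ninein, the microtubule anchor of the appendage. The gene lies on chromosome 14, 50719763 to 50831121, minus strand, and has the longest merged exonic sequence of the 8 at 13683 bases. NIN had 82.2, 86.3 and 86.7 CPM in siControl and 62.3, 72.6 and 75.0 CPM in siSON. The groups did not overlap, and siSON replicate 1 was the lowest. NIN fell by 0.28 on the log2 scale (SE 0.07, adjusted p 0.00444), the smallest of the 4 called changes. The size depended on scaling, with -0.48 for library size alone (adjusted p 0.000216) and -0.49 under cyclic loess (adjusted p 8.32e-05).

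NINL, ninein-like protein, binds gamma tubulin complexes and leaves the centrosome at mitosis when PLK1 phosphorylates it. It lies on chromosome 20, 25452705 to 25585517, minus strand. The libraries held 23, 13 and 11 NINL counts in siControl and 6, 5 and 4 in siSON. All 6 values were above the 3 counts taken as the floor, and every siSON count was below every siControl count. The level was 0.227 ± 0.0932 CPM (SD, n = 3) in siControl and 0.0930 ± 0.0128 in siSON, and the 2-sided exact permutation p of log2 CPM was 0.1, again the lowest possible. With no filter on low counts the edgeR log2 fold change was -1.26 (adjusted p 0.127). Without siControl replicate 3 the gene passed the filter and had an edgeR adjusted p of 0.033 (log2 fold change -1.51). It also passed the filter without siSON replicate 1, 2 or 3 and was not called there (adjusted p 0.0926, 0.102 and 0.128). In these fits NINL passed only through its siControl counts, since every siSON count was under the minimum of 10. They are therefore no support for a fall of NINL.

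The ninein relatives differed greatly in abundance. The log2 ratio of NINL counts over NIN counts was -7.96, -8.72 and -9.20 in siControl and -9.24, -9.55 and -9.90 in siSON. The groups were nearly touching, and the difference of the means was -0.93 (2-sided exact permutation p = 0.1, adjusted 0.1). Without siControl replicate 1, the library with 23 NINL counts, the difference was -0.60.

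CCDC120 showed the largest called change among the members. The protein places CEP170 at the appendage and has a role in neurite outgrowth. The gene is compact, on chromosome X, 49053572 to 49069857, plus strand, with 10 exons in its longest coding transcript. Counts were 385, 374 and 451 in siControl and 152, 166 and 157 in siSON, or 5.51, 5.88 and 6.03 CPM against 2.62, 3.22 and 3.09 CPM. The lowest siControl library stood well above the highest siSON library, and 51.2% of the control mean remained. CCDC120 fell by 0.97 on the log2 scale (SE 0.13, adjusted p 4.2e-05). Under cyclic loess the change was -0.63 (adjusted p 0.00138).

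CCDC68, which acts with CCDC120, was barely counted in these cells. It lies on chromosome 18, 54901509 to 54959508, minus strand. The libraries held 3, 0 and 3 counts in siControl and 5, 3 and 3 in siSON. With 5 of the 6 libraries at or under 3 counts, a level that corresponds to 0.0430 to 0.0550 CPM before scaling, no fold change is given, and a difference was not detectable at this depth.

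CEP170 is a large forkhead-associated domain protein and PLK1 substrate, found at the appendage tip and on spindle microtubules. The gene lies on chromosome 1, 243124428 to 243255348, minus strand. It had 13658, 12226 and 14139 counts in siControl and 7272, 6800 and 6807 in siSON, which is 196, 192 and 189 CPM against 125, 132 and 134 CPM. Replicates were close together in both groups and 67.8% of the control mean remained. CEP170 fell by 0.56 on the log2 scale (SE 0.05, adjusted p 1.47e-06), the smallest adjusted p of the members. Under cyclic loess the change was -0.86 (adjusted p 7.76e-08).

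CEP170 has a paralog, CEP170B, and a transcribed pseudogene, CEP170P1. CEP170P1 held 54 to 129 counts in a library. How reads that fit both copies were treated is not given in the sources used here. A part of the CEP170 counts is therefore uncertain, and its size was not measured. CEP170P1 fell by 0.49 on the log2 scale (SE 0.20, adjusted p 0.0448), a call lost under cyclic loess (-0.10, adjusted p 0.661). CEP170B was at 115, 125 and 123 CPM in siControl and 63.4, 76.2 and 68.8 CPM in siSON, and it fell by 0.80 on the log2 scale (SE 0.07, adjusted p 1.66e-06). The log2 ratio of CEP170B over CEP170 was -0.77, -0.62 and -0.62 in siControl and -0.98, -0.79 and -0.96 in siSON. The paralog thus fell further in the mean, by 0.24, and the nearest libraries almost met (2-sided exact permutation p = 0.1, adjusted 0.1).

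**Figure D2:**
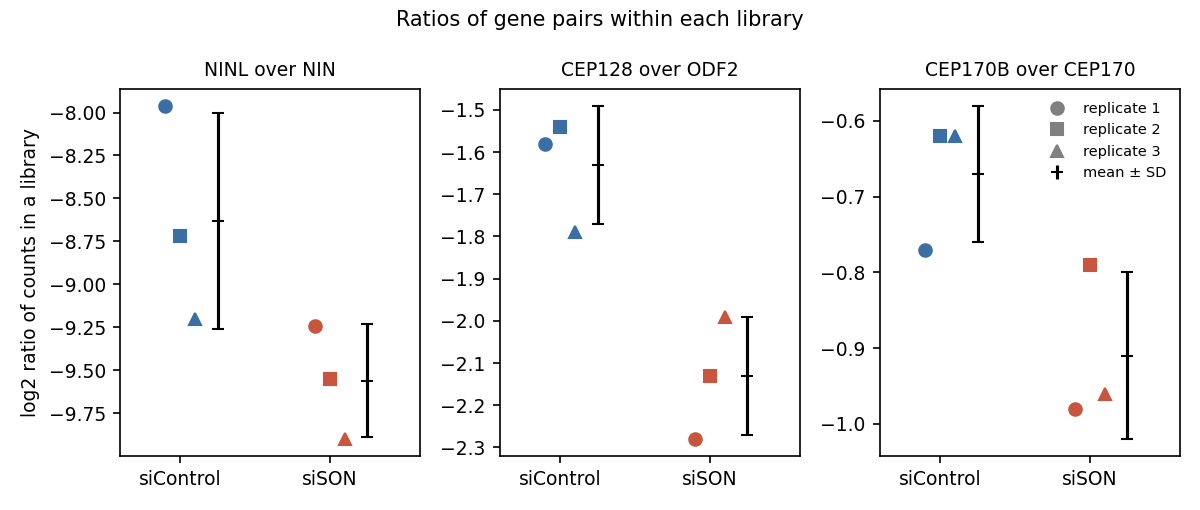
Log2 ratio of the counts of a gene pair in each library, for NINL over NIN, CEP128 over ODF2 and CEP170B over CEP170, with siControl in blue, siSON in red and bars for mean ± SD (n = 3). In each pair the 3 siSON ratios lie below the 3 siControl ratios, with the widest gap relative to spread for CEP128 over ODF2; each panel has its own scale.

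Of the 6 tested members, 5 were lower in every siSON library than in every siControl library, all but CNTRL. Among all genes tested, 38.2% had this form of separation. Genes that overlap a member in position share few of its exonic bases. ODF2-AS1 overlaps 2.83% of the exonic bases of ODF2 on the other strand and had at most 6 counts, 2 antisense genes overlap 4.29% and 1.37% of those of CEP170 with at most 4 counts, and 1 overlaps 0.53% of those of NIN with at most 2 counts. AL606834.2, inside NIN on the same strand, shares 0 exonic bases and had 10 to 24 counts. Since the strand setting is not given, reads mixed or lost in shared bases cannot be read from these counts.

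Gene structure differed widely among the members. The transcripts of CCDC68, CEP170, NIN, CNTRL and CEP128 were poor in GC, at 36.3%, 39.7%, 42.2%, 42.7% and 42.8%, while ODF2, NINL and CCDC120 had 51.0%, 57.7% and 61.5%, beside a median of 48.5% over 12681 tested protein-coding genes. CCDC120, with the largest fall, had a median intron of 368 bases and 3 of 9 introns under 200 bases. CEP128, with the next largest, had a median intron of 7272 bases and none under 200, beside a median of 1860 bases over 12685 genes. Across those genes the Spearman correlation with the log2 fold change was -0.21 for GC content and 0.25 for median intron length. It was 0.23 for gene span, 0.13 for transcript length and 0.04 for the number of introns. Genes are not independent replicates, and these values are a description. Exons that end in AG, the consensus before an intron, made up 54.2% of CEP128 exon ends, 55.0% of ODF2, 57.9% of CEP170, 58.1% of CNTRL, 66.7% of CCDC120, 73.3% of NIN, 78.3% of NINL and 90.9% of CCDC68, beside a median of 55.6%. The Spearman correlation of this share with the log2 fold change was 0.02 over the 12685 genes. The called genes lay on both sides of the medians given here.

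Other proteins that dock at the subdistal appendage, or modify it, moved in both directions. Of 16 such genes tested, 13 were called, 7 higher and 6 lower (81.2% called, beside 71.7% of all genes tested), with a median log2 fold change of 0.14, which was -0.05 with library size alone. This list was written from general knowledge of the structure, with earlier results of these data known. CCDC61, a centriole protein that helps to build the appendages, had 4.31, 4.94 and 5.52 CPM in siControl and 0.155, 0.194 and 0.0590 CPM in siSON (log2 fold change -5.15, SE 0.28, adjusted p 3.13e-08). Its counts were 301 to 413 in siControl and 3 to 10 in siSON. The siSON level thus reached the floor of 3 counts, and the size of the fall is poorly determined. TCHP, the keratin-binding protein trichoplein, fell by 1.14 (adjusted p 9.52e-07). CEP19 and FGFR1OP, which act together in ciliogenesis, fell by 1.27 and 0.60 (adjusted p 4.85e-05 and 0.000326).

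Motor subunits at the appendage split. KIF3A was at 28.3, 27.5 and 29.1 CPM in siControl and 13.3, 13 and 12.4 CPM in siSON, so that it fell by 1.13 on the log2 scale (SE 0.07, adjusted p 1.28e-07). Its kinesin-2 partner KIF3B was at 70.4, 79.2 and 79.9 CPM in siControl and 143, 133 and 144 CPM in siSON, so that it rose by 0.87 (SE 0.06, adjusted p 3.46e-07). The groups did not overlap for either gene. DCTN1, the dynactin subunit that binds the appendage, fell by 0.28 (adjusted p 0.00106). KIF2A, a microtubule depolymerase, rose by 0.36 (adjusted p 0.00263), a call lost with library size alone (0.17, adjusted p 0.125) and under cyclic loess (0.18, adjusted p 0.0689).

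The kinases PLK1 and NEK2, which act on appendage proteins at mitosis, rose by 0.57 and 0.54 (adjusted p 0.000771 and 0.00498). AKNA, a microtubule organiser at the appendage, rose by 0.86 (adjusted p 1.18e-05), and CEP350 and BBS4 rose by 0.45 and 0.43 (adjusted p 0.000383 and 0.000837). MAPRE1 (EB1, log2 fold change -0.02, adjusted p 0.808), CC2D2A (0.15, adjusted p 0.0741) and MARK4 (0.13, adjusted p 0.0752) were not called, although MAPRE1 was called lower under cyclic loess (-0.33, adjusted p 0.000667) and with library size alone (-0.22, adjusted p 0.0152).

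The distal appendage genes were examined in the same way. Of 11 tested, 8 were called, 7 lower and 1 higher, with a median log2 fold change of -0.66. The share called, 72.7%, was near the 71.7% of all genes tested. FBF1, which bridges the appendage to membrane, was at 5.30, 5.97 and 5.14 CPM in siControl and 0.276, 0.368 and 0.256 CPM in siSON. LRRC45 was at 19.5, 21.1 and 20.5 CPM and 3.07, 3.02 and 2.46 CPM. Both lay far outside the range of the subdistal members, at -4.18 (adjusted p 1.24e-08) and -2.83 (adjusted p 3.78e-09) on the log2 scale, and KIZ rose by 1.03 (adjusted p 1.14e-05). The remaining called genes, ANKRD26, SCLT1, CEP164, INPP5E and CEP83, ranged from -0.96 to -0.42 (CEP83, not called under cyclic loess at -0.21, adjusted p 0.114), and the 4 called subdistal members from -0.97 to -0.28. Whether the lists differ from each other was not tested.

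Recycling endosomes gather at the mother centriole through appendage proteins, with Rab11 and Rab8 GTPases as their markers. Of 9 genes of this traffic, 9 were called, 8 higher and 1 lower, with a median log2 fold change of 0.45, beside 35.2% called higher and 36.5% lower among all genes tested. RAB8A rose by 0.94 (adjusted p 6.31e-08), from 77.6 to 82.2 CPM in siControl to 147 to 160 CPM in siSON. RAB11A had 122, 134 and 136 CPM in siControl and 75.7, 77.0 and 79.9 CPM in siSON (log2 fold change -0.75, adjusted p 4.99e-07). With library size alone as the scaling 5 genes were called higher and 1 lower, since RAB11B, RAB3IP and EXOC6 lost their calls. Under cyclic loess 7 were called higher and 1 lower, and RAB11B turned to -0.02.

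**Figure D3:**
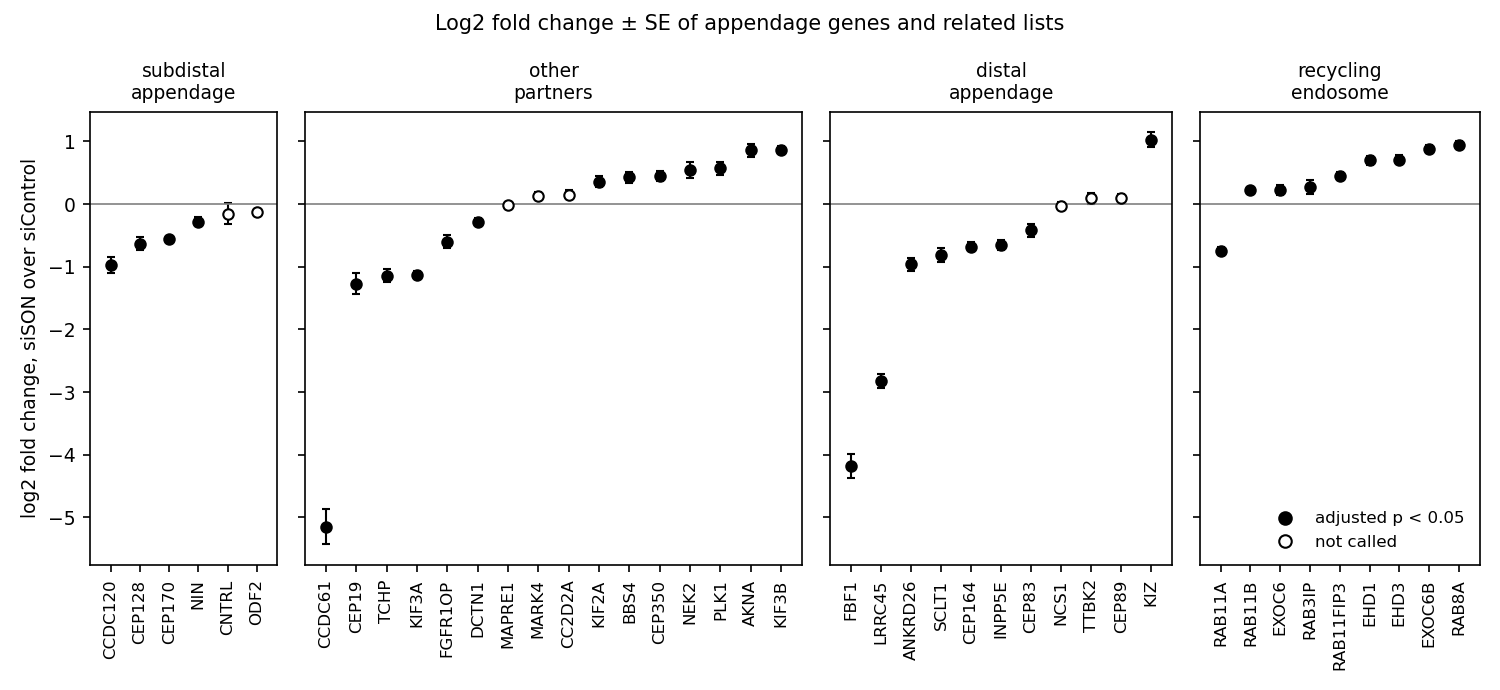
Log2 fold change (siSON over siControl, bars ± SE) of the 6 tested subdistal appendage genes, 16 partners, 11 distal appendage genes and 9 recycling endosome genes, ordered within each list, with filled points for adjusted p under 0.05. The 6 subdistal genes lie between -0.97 and -0.13, while CCDC61, FBF1 and LRRC45 lie far lower.

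For the other tested members, the nearest patterns over the 6 libraries among the same 51 genes were those of INPP5E for CEP128, ANKRD26 for CCDC120, PCNA for CEP170, TOP2A for NIN and ODF2L for ODF2. The root mean square differences were 0.063, 0.05, 0.058, 0.062 and 0.082 in centred log2 CPM. Such patterns contain the difference between the groups.

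**Figure D4:**
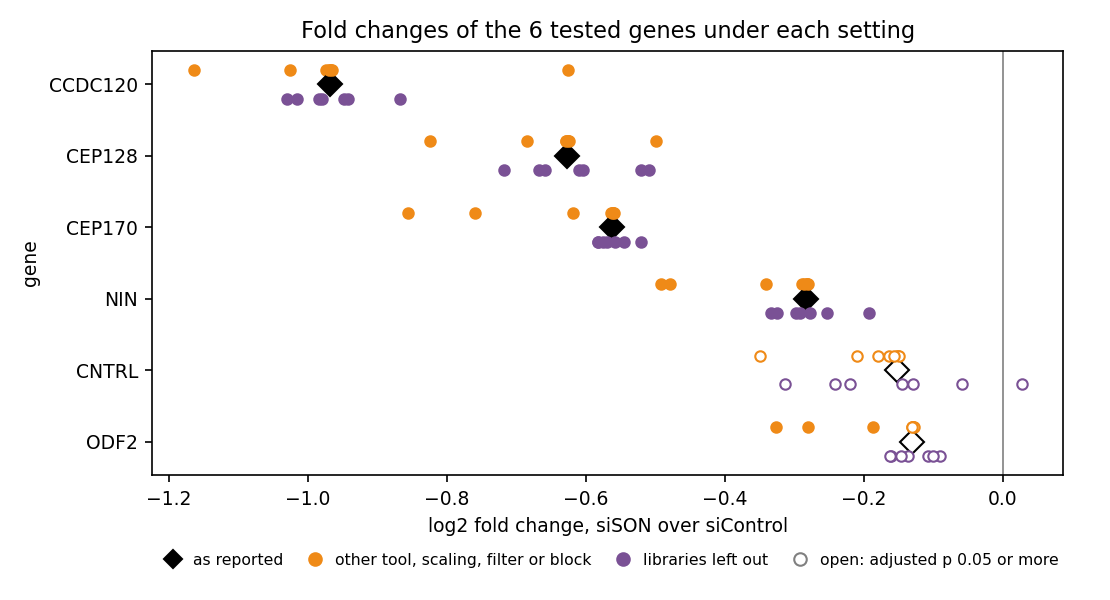
Log2 fold change of each tested gene as reported (diamond), under other tools, scalings, filters and the replicate block (orange) and with libraries left out (purple), with open symbols for an adjusted p of 0.05 or more. CCDC120, CEP128, CEP170 and NIN stay below 0 and filled throughout, CNTRL is open throughout and crosses 0 at 0.03, and ODF2 is filled under 3 settings.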

How the data were processed

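Messenger RNA was sequenced in 6 libraries of RPE-1 cells. The values are the authors' unnormalized gene counts as deposited, whole numbers with 1 column for each library. The submitters' processing notes name cutadapt 1.16, STAR 2.5.2a, featureCounts 1.6.2, DESeq2 1.28.1 and the build hg38; annotation, strand setting and treatment of multi-mapping reads are not given in the sources used here. All 58735 identifiers matched GENCODE release 29, the source of gene models. The members and lists were chosen with earlier results of these data known.

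Counts were analysed with edgeR 4.0.16 in R 4.3.3 (filterByExpr with minimum count 10, TMM, robust quasi-likelihood test, group as the only predictor). P-values were adjusted by Benjamini-Hochberg over all 16591 genes tested, and SE is the absolute log2 fold change over the square root of F. The code was tested on simulated data. Named genes are the 8 members, the checks SON, PLK4 and CETN2, and the listed genes, by rule. Ratios of raw counts were compared with exact permutation tests (scipy 1.17.1); 1 more planned pair, CCDC68 over CCDC120, was not computed because of a count of 0. Alternatives were DESeq2 1.42.0, limma-voom and cyclic loess (limma 3.58.1), RLE and library-size scaling, other filters, the replicate block and leaving out libraries. Totals were 54572365 to 69764836 counts. The floor of 3 counts covers counting error alone, because without molecular identifiers PCR copies count as separate reads.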

Additional observations from a re-analysis of the deposited data

How the results depend on the processing

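The number of members called, 4, was 4 or 5 under each of 15 alternatives, and with the replicate block it was 4. CCDC120, CEP128, CEP170 and NIN kept their direction and an adjusted p under 0.05 under all 15. Their log2 fold changes ranged from -1.16 to -0.63, -0.82 to -0.50, -0.86 to -0.52 and -0.49 to -0.19, and their highest adjusted p-values were 0.00138, 0.00163, 2.83e-05 and 0.0165. The fifth call was ODF2 with library size alone, cyclic loess or a mean count of at least 50, and NINL without siControl replicate 3, but not without any 1 siSON library. NINL entered those fits only through its siControl counts, where it is high, so its call is no support for a fall. CNTRL was never called (adjusted p from 0.051, with the replicate block, to 0.861). It ranged from -0.313 to 0.028 with 1 library left out, changing sign without siSON replicate 1. The cause was not tested. Scaling by library size alone moved the median log2 fold change of all genes by -0.20, and cyclic loess by 0.14. Under the latter NIN, CEP170 and ODF2 moved further down, against that shift. Leaving out 1 library kept the sign of all 3 pair ratios, where the smallest possible exact p is 0.2. The fit without replicate 1 of both groups, which called 4 members, was chosen after the data were seen. Deviations from the group means correlated at 0.194, 0.0461 and 0.118 for same-numbered libraries and at -0.138 to 0.0286 otherwise. Each library thus correlated best with its own number, a hint from the data that the numbers mark blocks. The labels state no block, so the main fit did not take the numbers as pairs. The replicate block changed no call of a member, and of the 16 partners it called 9 higher and 6 lower in place of 7 and 6. Depth limits NINL and CCDC68, at 0 to 23 counts a library.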
